A study of Arabidopsis thaliana with 2 samples.

Results

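Of the 151 Arabidopsis thaliana precursors in these data, 3 carry the name miR171: mir171a, mir171b and mir171c. The separately named mir170 (95 fiery and 9 wild-type reads) was not counted with these 3 copies. The copies were chosen by name: every sequence tag that the authors gave to one of these copies was counted with its abundance. The sites at which the precursors were cut were read by SPARE, in which an adaptor is joined to the free 5′ ends of RNA and the RNA is copied with a primer lying downstream in each precursor, so that the start of a tag marks a cut. There was 1 library of a mutant that the labels call fiery, with no gene or allele stated, and 1 library of the wild type, ecotype Col-0. Both were made from a mixture of seedlings of 2 weeks with leaves and inflorescences of plants of 5 weeks, all grown at 23 °C under 16 h of light, and both from total RNA depleted of ribosomal RNA. The ecotype behind the mutant is not stated, and the mutated gene was not measured by this assay, so neither genotype label had a check. The fiery library held 33192 reads and the wild-type library 12129, of which 550 (29 tags) and 520 (24 tags) belonged to miR171. Each value below comes from a single library and has no replicate check. The exact 95% intervals given in parentheses cover counting error only, since the assay had no molecular identifiers and PCR copies of a molecule are counted again.

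A plant microRNA is cut from a folded precursor by the enzyme DICER-LIKE1, which makes a pair of cuts on each arm of the hairpin. In some precursors the cut nearer the open base of the stem comes before the cut nearer the loop, and in others the loop is removed first. The mature miR171 lies on the 3′ arm and pairs with mRNAs of the HAIRY MERISTEM genes, GRAS-domain regulators that maintain shoot meristems. In Arabidopsis the FIERY1 gene encodes a phosphatase whose loss is known to hinder the 5′-to-3′ XRN exoribonucleases, which degrade RNA fragments with a free 5′ end.

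The precursors are shown to place the cuts, with the mature RNA of the 3′ arm in capitals, as DNA letters of the transcribed strand from the TAIR10.1 assembly with RefSeq annotation.
mir171a: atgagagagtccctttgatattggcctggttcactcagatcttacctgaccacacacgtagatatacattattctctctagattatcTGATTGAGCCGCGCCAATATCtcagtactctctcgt
mir171b: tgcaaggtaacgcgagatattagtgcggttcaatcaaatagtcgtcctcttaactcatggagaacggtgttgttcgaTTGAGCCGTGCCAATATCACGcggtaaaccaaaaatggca
mir171c: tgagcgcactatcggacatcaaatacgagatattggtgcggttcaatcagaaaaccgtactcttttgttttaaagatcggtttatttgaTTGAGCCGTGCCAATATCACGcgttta
In this build mir171a (AT3G51375) lies on the plus strand at chr3:19073434-19073556, mir171b (AT1G11735) on the minus strand at chr1:3961348-3961464 and mir171c (AT1G62035) on the minus strand at chr1:22930089-22930204. None of them overlaps another annotated gene. The nearest protein-coding genes lie 480 nt (AT3G51380), 884 nt (AT1G11730) and 2556 nt (AT1G62040) away.

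The mature RNAs of mir171b and mir171c are identical over 21 nt, and that of mir171a starts 3 nt further upstream in the shared sequence. They are shown with the seed, bases 2 to 8, in capitals.
mir171a, 3′ arm: tGATTGAGccgcgccaatatc
mir171b and mir171c, 3′ arm: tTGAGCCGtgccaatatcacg
Over the 18 aligned bases, 17 are identical and the difference between mir171a and the other copies is C12T, with positions counted from the 5′ end of the mir171a product. The seeds therefore differ between mir171a and the other copies. In HAM1 (AT2G45160), HAM2 (AT3G60630) and HAM3 (AT4G00150) the coding sequence holds the same site, complementary to the mir171a product at 21 of 21 bases.
Site in HAM1, HAM2 and HAM3: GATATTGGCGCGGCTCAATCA
It lies on the minus strand in each, at chr2:18619128-18619148 in HAM1, chr3:22411544-22411564 in HAM2 and chr4:58411-58431 in HAM3. For the product of mir171b and mir171c the best site in each gene is moved by 3 nt and is complementary at 18 of 21 bases, counting no G:U pairs. The mRNAs themselves were not measured.

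Cuts on the 3′ arm leave tags of recognisable sequence. A loop-side end, where the mature RNA begins, belongs to a molecule cut near the loop while its base was still intact. A base-side end, directly after the mature RNA, remains after either order of cuts, so that a low loop-side share does not by itself show that the base was cut first. The main tags at each cut in fiery are shown with the bases of the mature RNA in capitals.
mir171a, base-side: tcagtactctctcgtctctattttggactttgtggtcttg
mir171b, loop-side: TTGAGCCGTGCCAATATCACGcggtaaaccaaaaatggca
mir171b, base-side: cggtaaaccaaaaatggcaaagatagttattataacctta
mir171c, loop-side: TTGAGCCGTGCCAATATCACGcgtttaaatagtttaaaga
mir171c, base-side: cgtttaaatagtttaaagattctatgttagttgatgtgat
Loop-side tags of mir171b and mir171c are identical over their opening 23 nt and differ after that. Each of the 29 fiery and 24 wild-type miR171 tags matched the genome at a single place, so the copies were told apart. Tags of 35 nt or less all ended at 1 position in each copy. From there a base-side fragment was inferred to be 51 nt long in mir171a, 55 nt in mir171b and 52 nt in mir171c, and a loop-side fragment 72, 76 and 73 nt. Tags were cut off at 40 nt in fiery and at 50 nt in the wild-type library, so both cuts could be read in each. The fiery file held no tag of 36 to 39 nt, and the wild-type file none of 46 to 49 nt.

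**Figure D1:**
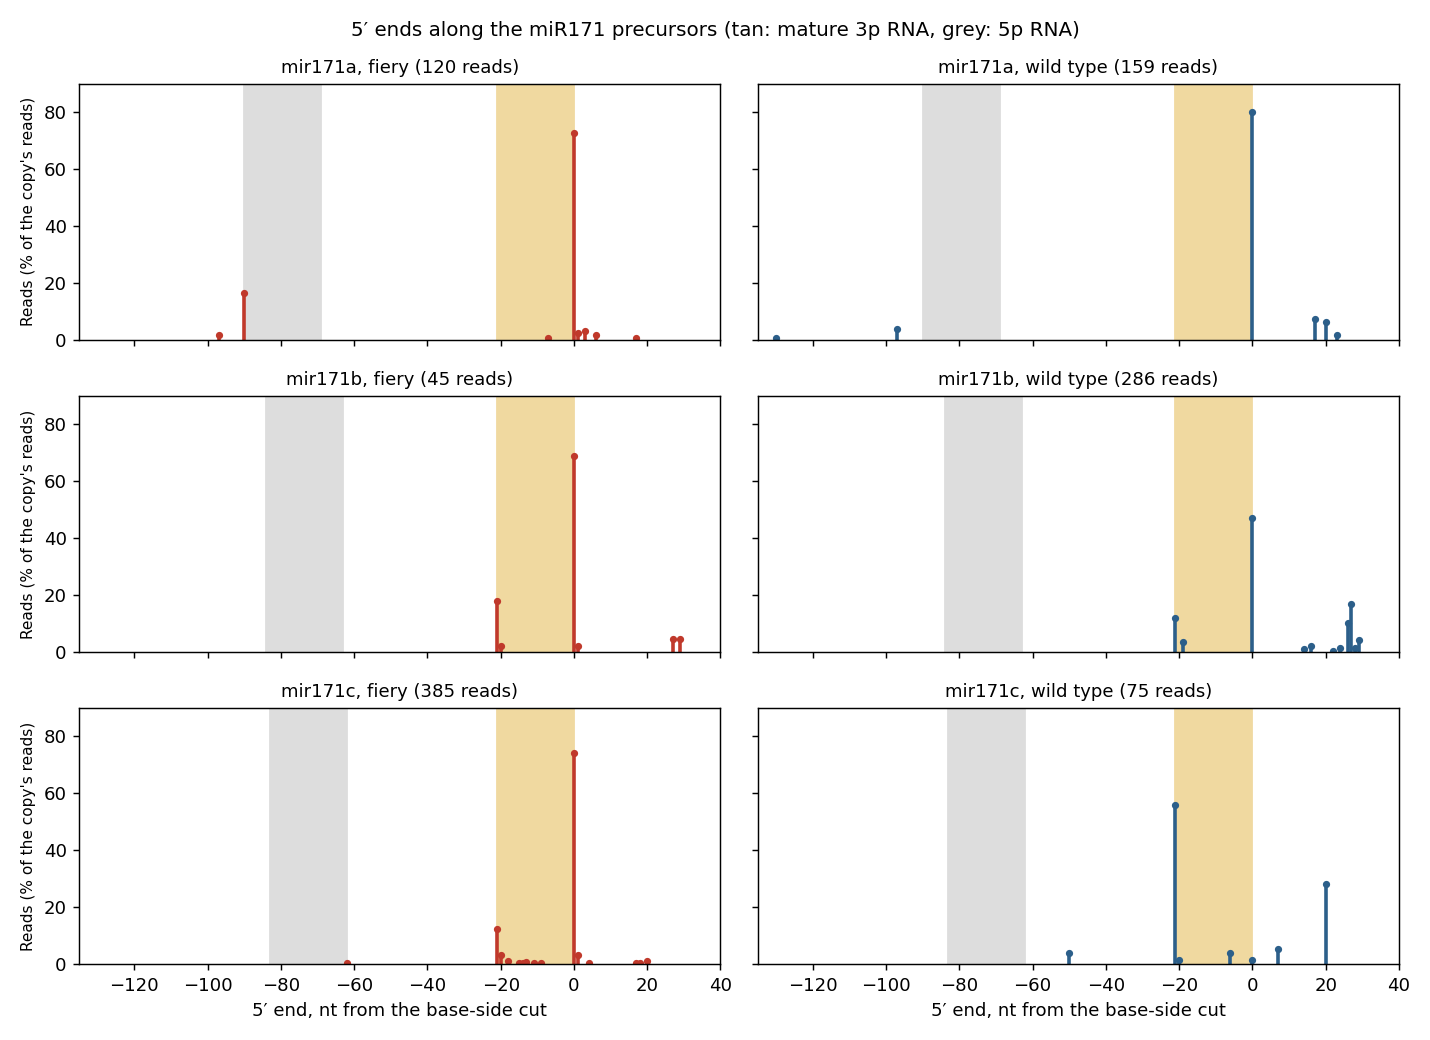
Reads at each 5′ end as a percentage of the reads of the copy (vertical axis) against the distance in nt from the base-side cut (horizontal axis), for each copy (rows) and library (columns). The mature RNA is shaded tan and the RNA of the 5′ arm grey. The tallest end lies at the base-side cut in every panel except mir171c in wild type, where it lies at the loop-side cut, 21 nt before it.

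mir171a was read at the base-side cut and at no loop-side end in either library. Of its 120 fiery reads, 87 started at chromosome 3, position 19073542, directly after the mature RNA, and 3 at the next nucleotide. Of its 159 wild-type reads, 127 started at that same position. The loop-side share is the percentage that loop-side reads make of all reads within 1 nt of either cut. It was 0% in fiery (0 of 90 reads, 0 to 4.02) and 0% in wild type (0 of 127 reads, 0 to 2.86). The floor of 3 counts, a set rule, equals loop-side shares of 3.33% and 2.36% at these depths. Finding 0 reads does not exclude shares up to the upper ends of the intervals.

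mir171b had both ends, with the base-side end the larger, in nearly the same proportion in both libraries. In fiery, 8 reads started at the loop-side cut (chromosome 1, position 3961387) and 1 at the next nucleotide, against 31 at the base-side cut (position 3961366) and 1 beside it. In wild type, 34 reads started at the loop-side cut and 135 at the base-side cut. The loop-side share was 22.0% in fiery (9 of 41 reads, 10.6 to 37.6) and 20.1% in wild type (34 of 169 reads, 14.4 to 27.0). These intervals overlap over most of their range. A further 10 wild-type reads started 2 nt inside the mature RNA, where fiery had none.

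mir171c differed between the libraries. In fiery its main end was the base-side cut (chromosome 1, position 22930094) with 286 reads and 13 at the next nucleotide, and the loop-side cut (position 22930115) held 48 reads with 13 at the next nucleotide. In wild type the loop-side cut held 42 reads with 1 at the next nucleotide, and the base-side cut held a single read. The loop-side share was 16.9% in fiery (61 of 360 reads, 13.2 to 21.2) and 97.7% in wild type (43 of 44 reads, 88.0 to 99.9), so these intervals lie far apart. Each value still comes from 1 library, and the wild-type value rests on 44 reads.

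**Figure D2:**
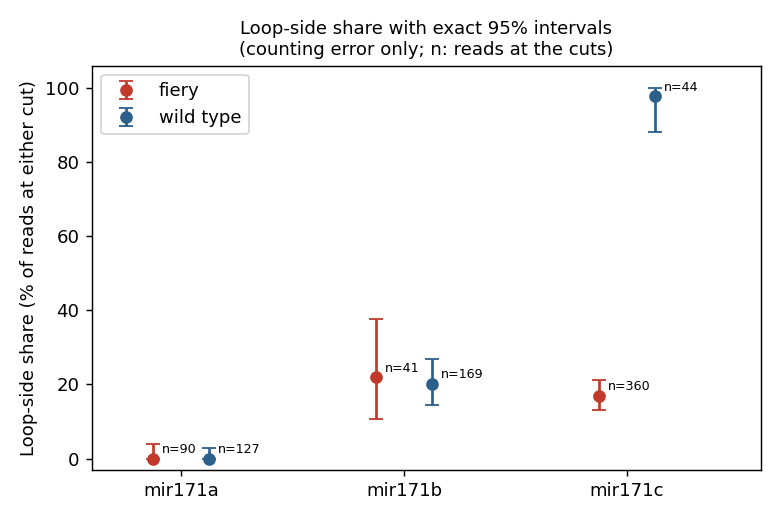
Loop-side share, in percent of the reads within 1 nt of either cut (vertical axis), for each copy (horizontal axis) in fiery (red) and wild type (blue). Points are the values and lines the exact 95% intervals, and n is the number of reads at the cuts. Points of mir171a lie at 0 and those of mir171b near 20% in both libraries, while mir171c falls at 16.9% in fiery and 97.7% in wild type.

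The background was taken from all precursors whose 3′ arm has a single annotated mature RNA and whose cuts held 10 reads or more. A loop-side share of at least 10% was found in 25.0% of the 48 such precursors in fiery and in 25.0% of the 28 in the wild-type library. Of the miR171 copies, mir171b and mir171c passed this level in each library and mir171a in neither. Between the libraries, the share differed by at least 10 percentage points in 20.8% of the 24 precursors with enough reads in each, and mir171c was the only miR171 copy among these. Its difference was -80.8 points as fiery minus wild type, the largest in size of the 24, and the next in size was 23.5 points for mir319c. The share of mir171b differed by 1.83 points and that of mir171a by 0.

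Within a library the copies were ordered differently. In wild type the order was mir171a, mir171b and mir171c, and the intervals of neighbours did not overlap. In fiery mir171a was lowest, below both intervals of the others, while the intervals of mir171b and mir171c overlapped. In the miR168 family, whose product targets ARGONAUTE1, the pooled share was 0.0339% in fiery (1 of 2947 reads, 0.000859 to 0.189) and 0.520% in wild type (5 of 962, 0.169 to 1.21). In the miR160 family, which targets auxin response factors, it was 29.8% (100 of 336, 24.9 to 34.96) and 64.3% (18 of 28, 44.1 to 81.4). Of these reads, mir160a held 334 of 336 in fiery and mir160c 22 of 28 in wild type. The miR160 values of the libraries thus rest mostly on different copies. The miR156 family, which targets SPL factors, had 17.1% (148 of 866, 14.6 to 19.8) and 45.0% (9 of 20, 23.1 to 68.5). No miR156 copy held more than 8 reads at the cuts in wild type, fewer than the background required. Pooled over its copies, miR171 had 14.3% (70 of 491, 11.3 to 17.7) and 22.6% (77 of 340, 18.3 to 27.5). This hides the range from 0 to 97.7% among these copies in wild type. Copies of other families differed widely too. In fiery those of miR156 ran from 5.54% to 49.3%. In wild type mir319a had 100% (16 of 16 reads) and mir319c 0% (0 of 82). Differences between families have no replicate check either.

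**Figure D3:**
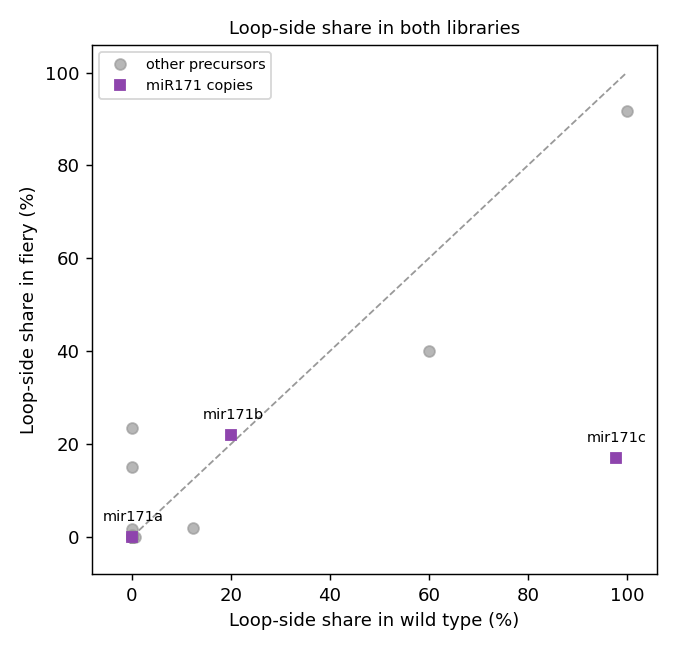
Loop-side share in fiery (vertical axis, percent) against wild type (horizontal axis, percent) for the 24 precursors whose cuts held 10 reads or more in each. Purple squares are the miR171 copies, grey circles the other precursors, and the dashed line marks equal shares. mir171a and mir171b lie near the line and mir171c lies far below it, at 97.7% against 16.9%.

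The copies also differed in how they fold. With 30 nt of flanking sequence on each side, RNAfold paired 12 of the 15 nt that follow the mature RNA of mir171a with the other arm, against 5 of 15 in mir171b and 4 of 15 in mir171c. On the side of the loop the order was the opposite, with 4 of the 15 nt before the mature RNA paired in mir171a, 11 in mir171b and 13 in mir171c. Within the mature RNA 19, 19 and 20 of 21 nt were paired. The stretch between the annotated RNAs of both arms was 48 nt in mir171a, 42 nt in mir171b and 41 nt in mir171c. These are predicted folds, not measured ones, and with 3 copies no relation to the cuts was tested.

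How the reads at each cut differed between the libraries was read from counts scaled to the library, as reads per 10000 library reads. For mir171c the difference lay at the base-side cut, with 90.1 in fiery (80.2 to 101) and 0.824 in wild type (0.0209 to 4.59). The ratio was 109 (19.5 to 4330), from 299 reads against 1. That single read lies below the floor of 3 counts, so the size of the base-side ratio is poorly known. Loop-side reads of mir171c stood at 18.4 in fiery (14.1 to 23.6) and 35.5 in wild type (25.7 to 47.7). They were thus 1.93-fold higher in wild type (1.27 to 2.90). Scaled by the median ratio of precursors (0.520), an alternative applied to the cuts after the data were seen, the loop-side ratio of fiery over wild type was 0.996 (0.663 to 1.51) and the base-side ratio 210 (37.4 to 8319). The wild-type excess of loop-side reads was thus not found under that scaling, while the base-side reads were higher in fiery under both.

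For mir171b both cuts were lower in fiery by a similar factor. Its base-side reads stood at 9.64 in fiery (6.60 to 13.6) and 111 in wild type (93.4 to 132), or 11.5-fold higher in wild type (7.80 to 17.5). Its loop-side reads stood at 2.71 (1.24 to 5.15) and 28.0 (19.4 to 39.2), or 10.3-fold higher in wild type (4.86 to 24.5). For mir171a the base-side reads stood at 27.1 in fiery (21.8 to 33.3) and 105 in wild type (87.4 to 125), or 3.86-fold higher in wild type (2.92 to 5.12). At the base-side cut, then, mir171a and mir171b were lower and mir171c was higher in fiery. Relative to the median ratio, the base-side ratios of fiery over wild type were 0.498 for mir171a and 0.166 for mir171b, and the loop-side ratio of mir171b was 0.186, so that these directions held. Such scaled counts were not compared for the other precursors, so nothing particular to miR171 can be read from the directions.

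**Figure D4:**
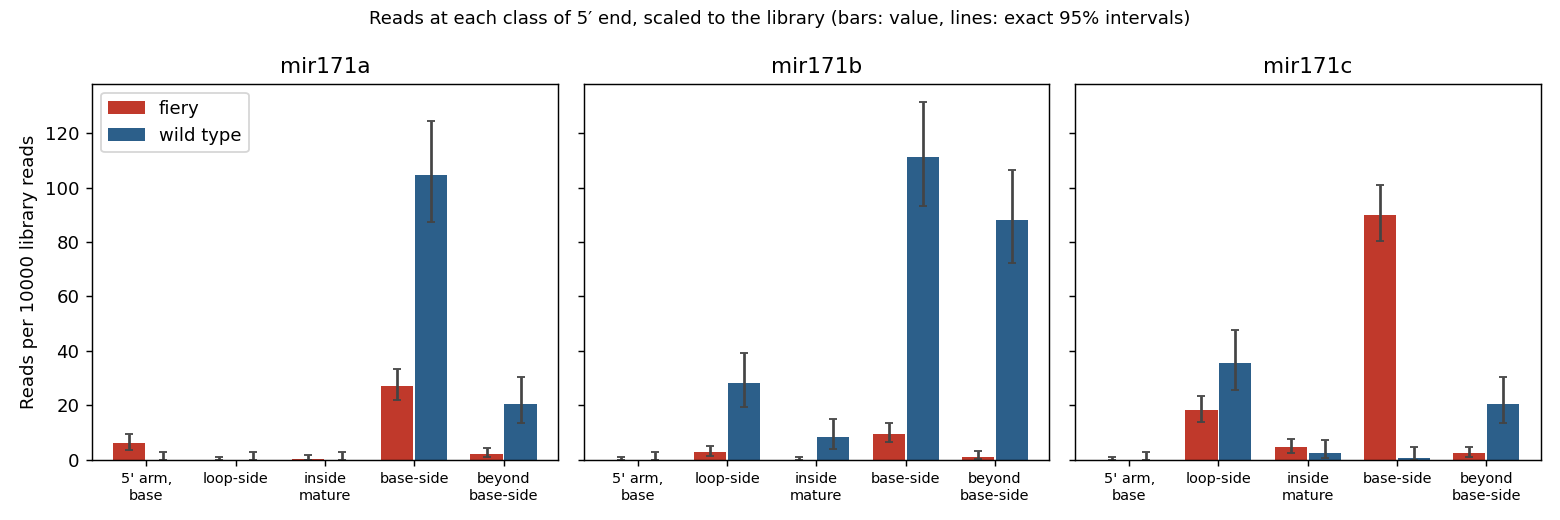
Reads per 10000 library reads (vertical axis) at each class of 5′ end (horizontal axis) for the 3 copies, in fiery (red) and wild type (blue). Bars are the values and lines the exact 95% intervals. The base-side bar of mir171c reaches 90.1 in fiery and 0.824 in wild type, while those of mir171a and mir171b are taller in wild type.

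As a share of all reads, mir171a held 0.362% in fiery (0.300 to 0.432) and 1.31% in wild type (1.12 to 1.53), or 3.63-fold more in wild type (2.84 to 4.63). mir171b held 0.136% (0.0989 to 0.181) and 2.36% (2.10 to 2.64), or 17.4-fold more in wild type (12.7 to 24.4). mir171c held 1.16% (1.05 to 1.28) and 0.618% (0.487 to 0.775), or 1.88-fold more in fiery (1.46 to 2.44). Of the 47 precursors whose reads summed to 100 or more over the libraries, 38.3% were at least 2-fold lower and 40.4% at least 2-fold higher in fiery. Differences past 2-fold, shown by mir171a and mir171b on the lower side and by no copy on the higher side, were thus common among precursors. For the 31 precursors that had 30 reads or more in both, the median ratio was 0.520, which is -0.94 in log2 units. Relative to it the fiery over wild-type ratios were 0.530 for mir171a, 0.110 for mir171b and 3.60 for mir171c. That of mir171a was then no longer past 2-fold, while that of mir171c was past 2-fold on the higher side. The percentages of the 47 precursors were not recounted relative to the median ratio. The ratios depended on the tags counted, with the library totals taken over the same tags. That of mir171a was 0.276 with all tags, 0.144 when tags of 35 nt or less were left out, 0.0429 when they alone were counted and 0.514 with each distinct tag counted once. That of mir171b was 0.0575, with 0.0353 from the longer tags and 0.210 from distinct tags. The direction held for both copies in these counts, but the interval of mir171a with distinct tags (0.157 to 1.80, 14 tags) included 1. For mir171c the ratio was 1.14 (0.853 to 1.54) with only tags longer than 35 nt and turned to 0.306 (0.101 to 0.784) with only shorter tags.

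A further group of ends lay beyond the base-side cut, and in each copy it held a higher share of the reads in wild type. In mir171b it held 107 of 286 wild-type reads, or 37.4% (31.8 to 43.3), and 4 of 45 fiery reads, or 8.89% (2.48 to 21.2). In mir171c it held 25 of 75 reads (33.3%, 22.9 to 45.2) and 8 of 385 (2.08%, 0.901 to 4.05). In mir171a it held 25 of 159 reads (15.7%, 10.4 to 22.3) and 7 of 120 (5.83%, 2.38 to 11.6). The intervals of the libraries lay apart for mir171b and mir171c and overlapped for mir171a. Ends beyond the base-side cut were not counted for the other precursors, so nothing particular to miR171 can be read from these shares.

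These ends were grouped at a few positions. In mir171b, 48 wild-type reads started 27 nt beyond the cut (chromosome 1, position 3961339) and 29 reads 26 nt beyond it, and the position at 27 nt held 2 fiery reads.
mir171b, 27 nt beyond: tattataaccttaaaggtatgtatcatt
In mir171c, 21 wild-type and 4 fiery reads started 20 nt beyond the cut (chromosome 1, position 22930074), and 4 wild-type reads 7 nt beyond it.
mir171c, 20 nt beyond: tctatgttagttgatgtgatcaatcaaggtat
In mir171a, 12 wild-type reads and 1 fiery read started 17 nt beyond the cut, and 10 wild-type reads 20 nt beyond it. The annotated precursors run for only 15 nt (mir171a), 19 nt (mir171b) and 6 nt (mir171c) after the base-side cut, so that all of these positions lie downstream of them. Their tags were mostly short, and tags of 35 nt or less held 27.7% of the miR171 reads in wild type and 2.00% in fiery, against 65.6% and 22.4% of all reads of the libraries. What part this difference in tag length had in the result was not tested. Ends 12 to 15 nt (mir171a), 16 to 19 nt (mir171b) and 13 to 16 nt (mir171c) beyond the cut would give fragments of the lengths absent from fiery. The 6 wild-type reads of mir171b at 16 nt had therefore no possible match in fiery. In the same way, ends 2 to 5 nt (mir171a), 6 to 9 nt (mir171b) and 3 to 6 nt (mir171c) beyond the cut could not be read in wild type, so that the 4 fiery reads of mir171a at 3 nt and the 2 of mir171c at 4 nt had no possible match there.

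Ends before the loop-side cut were few, with 1 exception on the 5′ arm of mir171a. There 20 of 120 fiery reads (16.7%, 10.5 to 24.6) started at chromosome 3, position 19073452, where the annotated RNA of the 5′ arm begins. The wild-type library had 0 of 159 reads at that end. Per 10000 library reads this was 6.03 in fiery (3.68 to 9.30) and 0 in wild type (0 to 3.04). Set against the floor of 3 wild-type counts, the fiery value was 2.44-fold higher, leaving out counting error in fiery.
mir171a, start of the 5′ arm RNA: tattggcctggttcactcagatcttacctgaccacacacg
A molecule with this end is cut at the base of the 5′ arm and still continuous through the loop and the 3′ arm to the primer, about 141 nt in all. Another end, 7 nt before it, held 2 fiery and 6 wild-type reads. No read of mir171b or mir171c started within 1 nt of the start of their 5′ arm RNAs. mir171c had 2 fiery reads at the nucleotide directly after its 5′ arm RNA, where a cut near the loop on that arm would fall, and 3 wild-type reads 29 nt before the loop-side cut.

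Inside the mature RNA, fiery had 15 scattered mir171c reads at 6 positions, none with more than 4 reads, and wild type had 3 at 1 position. Most reads lay at ends found in both libraries, although most positions were found in only 1 of them. Some of these positions could be read in only 1 library because of the absent tag lengths. No such count was made for the other precursors, so nothing particular to miR171 can be read from it. mir171a had 8 ends in fiery and 6 in wild type, of which 3 were shared and held 75.0% and 91.2% of the reads. In mir171b 4 ends were shared of 6 and 11, with 95.6% and 80.1% of the reads, and in mir171c 4 were shared of 15 and 7, with 91.2% and 86.7%.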

How the data were processed

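Both deposited files pair each tag with an abundance, a raw read count in whole numbers with no sign of scaling. Precursor names were assigned by the authors. Per the labels' protocols, RNA was copied with about 18 primers in each multiplex reaction and amplified in 18 PCR cycles. The submitters' processing notes name the aligner Bowtie and the genome TAIR10, with settings not given in the sources used here. Tags were matched exactly to TAIR10.1 on both strands, and all matched. The match nearest the annotated precursor was used, and the copies of mir405 were counted together. Ends within 1 nt of a cut were counted. Shares carry Clopper-Pearson intervals and ratios of shares exact conditional binomial intervals. With 1 library per group no test was made. All ends with at least 5% of a copy's reads in a library are named. Alternatives changed the window, tag lengths, tag counting, genome matches and scaling. Intervals and tag placement were tested on simulated data, which held counting error but no PCR copies. The members and the comparisons were chosen with earlier results of these data known. Folds came from RNAfold 2.7.2, intervals from scipy 1.17.1 and figures from matplotlib 3.10.9, under Python 3.11.15 with pandas 2.3.3 and numpy 2.4.6.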

Additional observations from a re-analysis of the deposited data

How the results depend on the processing

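Of 68 alternative values for 15 results, 48 stayed within the interval of the value reported or at the same end, 18 moved beyond it and 2 turned direction. Some of the 48 could not have moved, because each miR171 tag had a single match in the genome and short tags reach neither cut. Loop-side shares stayed within their intervals with the exact position and a window of 2 nt. Counting only tags longer than 35 nt or only tags with a single match could not change these shares, since no read at the cuts was left out. With each distinct tag counted once they became 50% for mir171b in fiery, 50% for mir171b in wild type, 50% for mir171c in fiery and 66.7% for mir171c in wild type, from 4 tags or fewer each, and 0% for mir171a. No loop-side share could be given with only tags of 35 nt or less, which reach neither cut. With those tags the main end lay 17 nt beyond the base-side cut for mir171a in both libraries, 27 nt for mir171b in wild type and 20 nt for mir171c in both libraries, and in fiery mir171b had a tie. The main end with distinct tags was a tie throughout and is not given. The ratio of mir171a was 0.144 with longer tags, 0.0429 with shorter tags, 0.514 with distinct tags (0.157 to 1.80) and 0.530 relative to the median ratio. That of mir171b was 0.0353 with longer tags, 0.210 with distinct tags and 0.110 relative to the median ratio. That of mir171c was 1.14 with longer tags and 3.60 relative to the median ratio. It turned to 0.306 with shorter tags and 0.827 with distinct tags, the latter with an interval that includes 1 (0.317 to 2.40). For the ratios by tag length, library totals counted only tags of the same length class. Tags of 35 nt or less held 22.4% of all fiery reads and 65.6% of all wild-type reads. A ratio with all tags can therefore lie above those of both classes, as it did for all 3 copies. What else entered into the change with tag length was not tested. Leaving out mir405 or the most abundant precursor of each library kept all 3 ratios within their intervals. No paired analysis was possible because each group has 1 library. Depth limits mir171b in fiery (41 reads at the cuts) and mir171c in wild type (44).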
